A study of Mus musculus with 26 samples.

Results

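The genes described here encode nuclear receptors for steroid hormones and the 5-alpha reductases. They were taken by symbol from both RNA count tables: Esr1, Esr2, Pgr, Nr3c1, Nr3c2, Srd5a1, Srd5a2 and Srd5a3, 8 of 41442 gene rows in each table. All 8 had a row in both tables. A filter on low counts left 7 of the 8 for testing in the fetal table and 6 of the 8 in the uterine table; Srd5a2 was tested in neither, and Esr2 in the fetal table only.

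RNA was sequenced from tomato-labelled mesenchymal cells sorted out of the mouse reproductive tract. In the fetal table the cells were Gli1+ cells of the mesonephros from embryos of both sexes (XX or XY), taken at E14.5 or E16.5 and marked through Gli1-CreER and Rosa-Tomato. In the uterine table they were Gli1+ cells, marked the same way, and Amhr2+ cells, marked through Amhr2-Cre and Rosa-Tomato, from XX uteri at E19.5. Each of the 6 groups had 3 libraries. The labels describe 1 treatment for all of them: 1 mg of tamoxifen per dam, injected at E12.5 and E13.5. Tamoxifen is itself a ligand of oestrogen receptors, and the labels name no group without it, so its part in any level given here cannot be told apart from that of the tissue. The treatment wording is the same for every sample, and whether the Amhr2-Cre dams were treated as written could not be checked. If they were not, tamoxifen would differ between the 2 uterine groups and could not be told apart from their other differences. Gli1-CreER marks cells that expressed Gli1, a target of hedgehog signalling, around the time of the injections, together with their descendants; Amhr2 encodes the receptor for anti-Müllerian hormone. The labels do not say whether the libraries of a group came from separate animals, litters or pools, so the p-values measure the spread between these libraries. Library kits differed in whether they keep strand (only the uterine kit does), and each table was analysed by itself.

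In fetal life the XX and XY reproductive tracts start from the same pair of ducts and a similar mesenchyme, and steroid hormones act on that mesenchyme as the tracts diverge. Steroid receptors are transcription factors that wait in the cell for a ligand: Esr1 and Esr2 encode the alpha and beta oestrogen receptors, Pgr the progesterone receptor, Nr3c1 the glucocorticoid receptor and Nr3c2 the mineralocorticoid receptor. In the uterus, oestrogen acting through ESR1 is known to raise Pgr. The products of Srd5a1 and Srd5a2 convert testosterone to the more potent dihydrotestosterone, and that of Srd5a3 is best known for reducing polyprenol in the pathway of protein N-glycosylation.

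The libraries held between 23382983 and 64602477 counts in the fetal table and between 28709191 and 37541045 in the uterine table. Levels below are CPM, counts scaled to a common library total after adjusting library sizes by edgeR's TMM method. The labelled sexes matched the sex-linked transcripts: Ddx3y, on the Y chromosome, lay between 104 and 137 CPM in the XY libraries and at or below 2.17 CPM in every XX library. All 8 mesenchymal markers were detected in every group, and in no library did the summed germ cell markers exceed 6.53 CPM. In the uterus Amhr2 averaged 11.1 CPM in Amhr2+ and 4.10 CPM in Gli1+ cells, and Gli1 10.5 and 17.9 CPM. One library, E14.5 XX replicate 3, held 936 CPM of erythroid transcripts against at most 16.55 CPM in every other fetal library.

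The promoters of Esr1 and Pgr, the receptor genes with the largest sex differences at E16.5, are shown with 2 windows from open chromatin inside those genes. Promoters run from 250 bases before to 50 after the RefSeq start (GRCm38.p6). The windows are 300 bases centred on a peak of the authors' unified ATAC-seq list, which maps transposase-accessible DNA. Sequences are 5′ to 3′ on the plus strand, the strand of both genes. Capitals mark half-sites of the response elements of steroid receptors: AGGTCA or its reverse complement TGACCT for oestrogen receptors, and AGAACA or its reverse complement TGTTCT for the glucocorticoid, mineralocorticoid and progesterone receptors.
Esr1 promoter, chr10:4611739-4612038: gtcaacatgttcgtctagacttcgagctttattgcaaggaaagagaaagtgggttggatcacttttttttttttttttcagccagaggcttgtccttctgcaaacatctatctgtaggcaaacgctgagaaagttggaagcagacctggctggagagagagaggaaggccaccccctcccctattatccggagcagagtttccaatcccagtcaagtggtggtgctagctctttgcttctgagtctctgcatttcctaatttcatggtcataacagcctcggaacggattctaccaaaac
Pgr promoter, chr9:8899583-8899882: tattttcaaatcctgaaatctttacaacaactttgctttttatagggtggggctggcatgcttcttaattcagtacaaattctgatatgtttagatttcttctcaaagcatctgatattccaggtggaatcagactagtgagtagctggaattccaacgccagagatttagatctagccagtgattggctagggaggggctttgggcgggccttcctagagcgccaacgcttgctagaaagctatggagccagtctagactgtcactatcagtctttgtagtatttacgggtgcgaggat
Esr1 intronic peak window, chr10:4612323-4612622: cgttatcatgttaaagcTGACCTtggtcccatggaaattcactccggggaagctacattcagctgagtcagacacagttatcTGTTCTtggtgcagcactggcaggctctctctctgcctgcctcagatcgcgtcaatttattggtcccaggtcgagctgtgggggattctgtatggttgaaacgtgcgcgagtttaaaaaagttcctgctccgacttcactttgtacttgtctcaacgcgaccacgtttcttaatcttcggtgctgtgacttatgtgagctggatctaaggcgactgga
Pgr intronic peak window, chr9:8937648-8937947: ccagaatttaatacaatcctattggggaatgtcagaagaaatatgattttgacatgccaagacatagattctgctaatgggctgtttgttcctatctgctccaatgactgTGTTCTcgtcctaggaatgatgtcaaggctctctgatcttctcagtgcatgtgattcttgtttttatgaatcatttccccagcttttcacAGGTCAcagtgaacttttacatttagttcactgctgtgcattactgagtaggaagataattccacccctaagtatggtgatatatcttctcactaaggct

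Neither promoter held a half-site, nor did the RefSeq promoters searched for Esr2, Nr3c2, Srd5a1, Srd5a2 and Srd5a3 or a second one of Esr1; that of Nr3c1 was not analysed here. Among 32851 promoters of the same length, 16.3% held the oestrogen half-site and 19.0% the other. Each of the windows shown held 1 of each kind, which most peak windows at Esr1 and Pgr did not. The window on the first peak of each of these genes held neither. Half-site matches are common: 16.7% of 70999 peak windows held the oestrogen half-site and 24.0% the other. The full inverted repeats, AGGTCANNNTGACCT and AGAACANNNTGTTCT, were in no window at any member, and in 0.0549% and 0.0662% of all peak windows. A match describes letters only.

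Esr1, on chr10:4611989-5005614 (plus strand), was the 1 member that separated all 4 fetal groups without overlap. Its position and those of the genes below are the mm10 coordinates given with the authors' counts. The Esr1 level was 131, 128 and 130 CPM in the E14.5 XX libraries and 99.8, 104 and 100 CPM in the E14.5 XY libraries. At E16.5 it was 195, 199 and 193 CPM in XX cells and 80.4, 82.0 and 83.3 CPM in XY cells. Replicates of a group lay close together, with standard deviations from 1.43 to 3.42 CPM. The XX cells already held more Esr1 at E14.5, and the gap widened by E16.5.

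At E14.5 the XX level exceeded the XY level by 0.35 ± 0.05 on the log2 scale (SE, n = 3 against 3; edgeR's quasi-likelihood test with Benjamini-Hochberg adjustment over all genes, adjusted p = 0.000534). Esr1 was the 1 member called of 7 at that age, where 6.28% of all 17858 genes were called. Leaving out E14.5 XX replicate 3, the library with erythroid transcripts, gave 0.35 and an edgeR adjusted p of 0.00507. At E16.5 the XX excess was 1.26 ± 0.05, a 2.39-fold difference (edgeR adjusted p = 1.35e-10). Between the ages the sex difference grew by 0.91 ± 0.07, tested as an interaction (edgeR adjusted p = 9.88e-07). Esr1 rose with age in XX cells by 0.60 ± 0.05 (edgeR adjusted p = 2.93e-07) and fell by 0.31 ± 0.05 in XY cells, both log2 (edgeR adjusted p = 0.000341). All of these calls held in each of the 11 alternatives run for a sex or age contrast and the 16 run for the interaction.

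In the uterus Esr1 was 467, 478 and 430 CPM in Amhr2+ cells and 403, 373 and 349 CPM in Gli1+ cells. The groups did not overlap, although the lowest Amhr2+ and highest Gli1+ libraries were near each other. The log2 difference was 0.29 ± 0.07 (edgeR adjusted p = 0.0237), the 1 member called of 6, where 23.9% of all 16195 genes were called. That call rested on single libraries: the adjusted p was 0.0911 without Amhr2+ replicate 1, 0.0702 without Amhr2+ replicate 2 and 0.0657 without Gli1+ replicate 3.

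**Figure D1:**
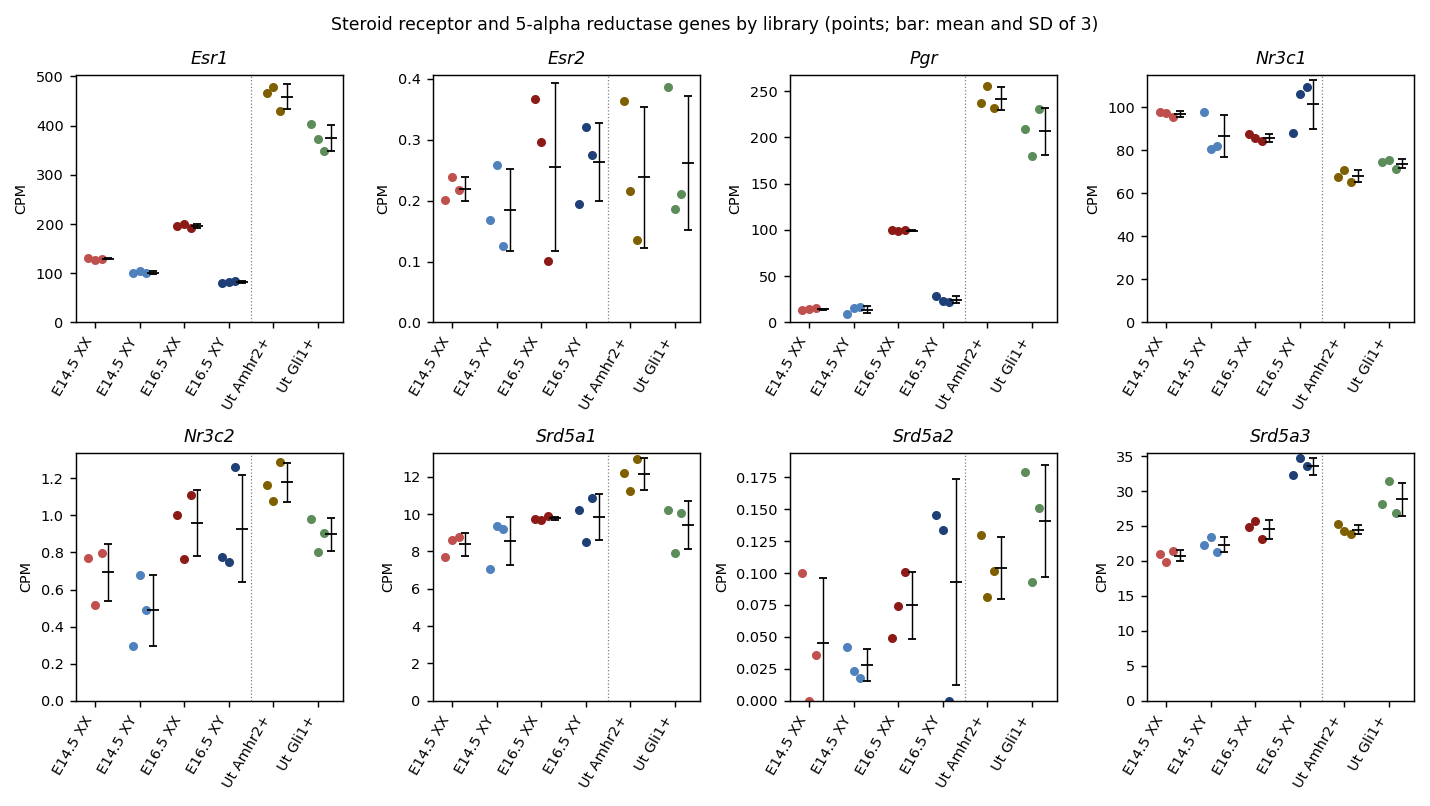
Levels of the 8 genes in every RNA library, in CPM on linear axes that start at 0, with each point a library and each bar the mean and SD of 3 (bars are clipped at 0). The dotted line separates the fetal Gli1+ groups (E14.5 and E16.5, XX and XY) from the uterine groups (Ut), which come from a separate table. Esr1 separated all 4 fetal groups, Pgr stood highest among them in E16.5 XX at 98.8 to 99.7 CPM, and Esr2 and Srd5a2 stayed below 0.4 CPM.

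Esr2, on chr12:76120419-76177259, was near the limit of detection in both tables. It had between 4 and 17 counts in each of the 18 libraries and 160 counts in all. Group means ran from 0.184 ± 0.067 CPM in E14.5 XY to 0.263 ± 0.064 CPM in E16.5 XY (SD, n = 3) in the fetal table. The uterine means were 0.238 ± 0.115 CPM in Amhr2+ and 0.261 ± 0.110 CPM in Gli1+ cells. Every pair of neighbouring groups overlapped. The approximate 95% interval of the E16.5 sex difference ran from -0.88 to 0.80 on the log2 scale, so differences within it were not detectable at this depth. It was set from the SE by a normal approximation, as were the intervals below. Among the 2 oestrogen receptor genes, nearly all transcript was Esr1: in E16.5 XX cells Esr1 stood at 14.3 CPM per kb of merged exon and Esr2 at 0.0756.

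Pgr, on chr9:8899833-8968611, had the largest change with age of the tested members in XX cells. It was 13.8, 14.02 and 15.1 CPM in E14.5 XX cells and 9.55, 15.4 and 16.6 CPM in E14.5 XY cells. At E16.5 it stood at 99.7, 98.8 and 99.6 CPM in XX cells and at 29.03, 22.6 and 21.7 CPM in XY cells. The E14.5 groups overlapped, and from them both sexes moved up, the XX cells much further.

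The sex difference at E14.5 was 0.03 ± 0.16 on the log2 scale (approximate 95% interval -0.30 to 0.35, edgeR adjusted p = 0.957). At E16.5 the XX level was 4.06-fold the XY level, a log2 difference of 2.02 ± 0.16 (edgeR adjusted p = 6.57e-07). Pgr rose with age by 2.80 ± 0.17 in XX cells (6.94-fold; edgeR adjusted p = 4.81e-08) and by 0.80 ± 0.16 in XY cells (edgeR adjusted p = 0.0026). The interaction was 1.997 ± 0.22 (edgeR adjusted p = 9.06e-05). These calls held in every alternative run. Where Esr1 moved in opposite directions in the sexes, Pgr rose in both.

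Uterine Pgr was 237, 256 and 232 CPM in Amhr2+ cells and 209, 180 and 230 CPM in Gli1+ cells. The groups came within 2 CPM of each other without overlapping. The difference of 0.23 ± 0.09 was not called (edgeR adjusted p = 0.110), but it was called without Gli1+ replicate 3 (adjusted p = 0.0428) and with library-size scaling in place of TMM (adjusted p = 0.028).

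Nr3c1, on chr18:39410545-39490674, was expressed at a similar level in every fetal group. It was 97.6, 97.4 and 95.2 CPM in E14.5 XX, 97.8, 80.3 and 81.8 CPM in E14.5 XY, 87.6, 85.4 and 84.1 CPM in E16.5 XX and 88.0, 106 and 109 CPM in E16.5 XY cells. In each XY group replicate 1 lay apart from the remaining pair, and all neighbours in the order of group means overlapped, though at E16.5 the highest XX library lay just below the lowest XY one. The E16.5 difference of -0.24 ± 0.08, lower in XX, passed the threshold (edgeR adjusted p = 0.0468), as did the interaction of -0.40 ± 0.12 (edgeR adjusted p = 0.0455). Neither call was stable: leaving out any 1 of 5 of the 6 E16.5 libraries raised the adjusted p of the first to between 0.0778 and 0.161, E16.5 XY replicate 1 being the exception, and leaving out any 1 of 10 of the 12 fetal libraries raised that of the second to between 0.0709 and 0.125, the exceptions being replicate 1 of both XY groups. With age the level differed by -0.17 ± 0.09 in XX (edgeR adjusted p = 0.117) and by 0.23 ± 0.08 in XY cells (edgeR adjusted p = 0.0671). The XX difference was called when only the libraries compared were fitted (adjusted p = 0.00771) or with library-size scaling (0.0332), and the XY difference without replicate 1 of E16.5 XY (0.00613) or of E14.5 XY (0.0112) or with no filter (0.0258). In the uterus Nr3c1 was 67.4, 71.0 and 65.3 CPM in Amhr2+ and 74.3, 75.6 and 71.4 CPM in Gli1+ cells (log2 difference -0.12 ± 0.06, edgeR adjusted p = 0.185).

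Nr3c2, on chr8:76899772-77245012, was a low transcript, and 3 other annotated genes overlap it, 2 of them on the opposite strand. It was 0.768, 0.518 and 0.797 CPM in E14.5 XX and 0.295, 0.681 and 0.487 CPM in E14.5 XY cells. At E16.5 it was 1.00, 0.763 and 1.11 CPM in XX and 0.775, 0.748 and 1.26 CPM in XY cells. Its rise in XY cells, 0.89 ± 0.31, was at the threshold (edgeR adjusted p = 0.0486). It was not called without E16.5 XY replicate 3 (adjusted p = 0.215), E14.5 XY replicate 1 (0.143) or E14.5 XY replicate 3 (0.135), nor with DESeq2 (0.0595), library-size scaling (0.0586), only the libraries compared (0.105) or the replicate block (0.0511), so that 4 of 11 alternatives gave a call. Uterine Nr3c2 was 1.17, 1.08 and 1.29 CPM in Amhr2+ cells and 0.983, 0.805 and 0.905 CPM in Gli1+ cells, without overlap and not called (log2 difference 0.39 ± 0.23, edgeR adjusted p = 0.250). Per kb of merged exon in E16.5 XX cells, Nr3c1 stood at 11.2 CPM and Nr3c2 at 0.148.

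**Figure D2:**
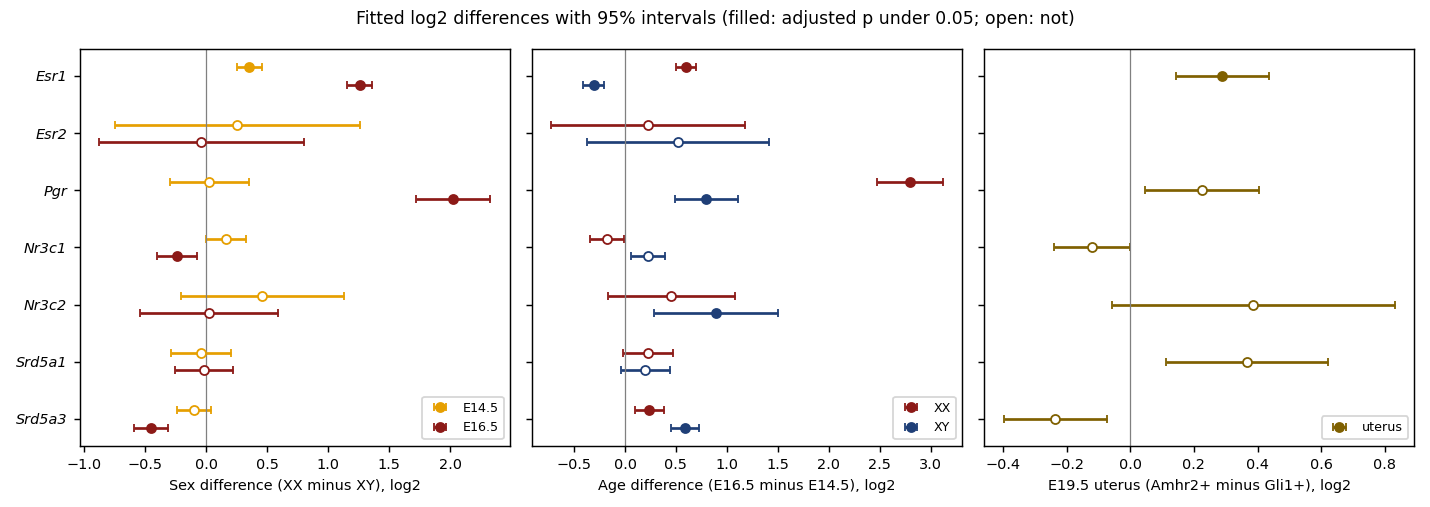
Fitted log2 differences with approximate 95% intervals for the 7 tested members. The sex contrast at each age is on the left and the age contrast in each sex in the middle. The contrast of uterine populations is on the right, where Esr2 was not tested. Intervals come from the SE by a normal approximation and are narrower than the test implies, so an open point can have an interval that leaves out 0. Filled points passed an adjusted p of 0.05 and open points did not; Esr1 and Pgr lie furthest right in the sex contrast at E16.5, at 1.26 and 2.02, and Srd5a3 lies at -0.45.

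Of the 5-alpha reductase genes, Srd5a3 was the highest and the 1 whose sex difference passed the test. Srd5a3, on chr5:76140271-76155479, was 21.04, 19.9 and 21.4 CPM in E14.5 XX cells and 22.3, 23.4 and 21.2 CPM in E14.5 XY cells. At E16.5 it was 24.8, 25.7 and 23.1 CPM in XX and 32.3, 34.7 and 33.5 CPM in XY cells. The E16.5 XY libraries lay above all others, while the 3 remaining groups sat near one another. The XX level at E16.5 was lower by a log2 difference of -0.45 ± 0.07 (edgeR adjusted p = 0.000167), and the rise with age in XY cells was 0.59 ± 0.07 (edgeR adjusted p = 1.56e-05). Both calls held in all 11 alternatives. The smaller rise in XX cells, 0.24 ± 0.07 (edgeR adjusted p = 0.0162), was not called without replicate 2 of E16.5 XX (adjusted p = 0.072) or of E14.5 XX (adjusted p = 0.0765). For the interaction, -0.35 ± 0.10 (edgeR adjusted p = 0.0376), 10 of 16 alternatives gave no call; 8 of these left out 1 library each, with adjusted p from 0.0545 to 0.109, and the libraries whose loss kept the call were E16.5 XX replicate 2, E16.5 XY replicate 1 and E14.5 XY replicates 1 and 2. In the uterus Srd5a3 was 25.2, 24.3 and 23.9 CPM in Amhr2+ and 28.1, 31.5 and 26.8 CPM in Gli1+ cells (log2 difference -0.24 ± 0.08, edgeR adjusted p = 0.0726).

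Srd5a1, on chr13:69573449-69611442, varied little; the annotated gene RP24-366J10.4 overlaps it on the same strand. Its level was 7.68, 8.64 and 8.80 CPM in E14.5 XX, 7.07, 9.39 and 9.18 CPM in E14.5 XY, 9.75, 9.68 and 9.88 CPM in E16.5 XX and 10.2, 8.49 and 10.9 CPM in E16.5 XY cells. The sexes overlapped at both ages. Its sex difference at E16.5 was -0.02 ± 0.12, with an approximate 95% interval from -0.25 to 0.22 (edgeR adjusted p = 0.941). With age it differed by 0.22 ± 0.13 in XX (edgeR adjusted p = 0.172) and by 0.20 ± 0.12 in XY cells (edgeR adjusted p = 0.267). Uterine Srd5a1 was 12.2, 11.2 and 12.9 CPM in Amhr2+ cells and 10.2, 7.92 and 10.1 CPM in Gli1+ cells, without overlap. The difference of 0.37 ± 0.13 was not called (edgeR adjusted p = 0.0744), though it was with DESeq2 (adjusted p = 0.0484) and with library-size scaling (adjusted p = 0.0308).

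Srd5a2, on chr17:74017706-74047916, was not clearly detected. The libraries held between 0 and 6 counts each and 52 in all, and 6 of 18 exceeded a floor of 3 counts, which corresponds to 0.0485 to 0.126 CPM over the fetal libraries. No group had all 3 libraries above that floor. Differences in Srd5a2 between these groups were therefore not measurable at this depth.

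Counted together, 4 of the 7 tested members were called between the sexes at E16.5, Esr1 and Pgr higher and Srd5a3 and Nr3c1 lower in XX, where 27.3% of all genes were called. The interaction called the same 4 members, against 10.0% of all genes. With age, 3 of 7 rose in XX cells (39.6% of all genes called) and 4 of 7 changed in XY cells, 3 up and Esr1 down (23.3% of all genes called). The median log2 difference of the tested members was -0.02 for sex at E16.5 and 0.16 at E14.5, and over all genes it was 0.01 and -0.01. In the uterus the member median was 0.26 and that of all genes 0.00. Members were chosen as a class, and the counts describe them only. In bulk RNA, fewer cells of a type and less transcript per cell cannot be told apart.

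Set against gene length, the order of the members changed between groups. In E14.5 XX cells Nr3c1 led at 12.6 CPM per kb of merged exon, followed by Esr1 at 9.48, Srd5a3 at 4.47, Srd5a1 at 2.88 and Pgr at 1.67. By E16.5 in XX cells Esr1 led at 14.3, with Pgr at 11.6 and Nr3c1 at 11.2 close together. In E16.5 XY cells Nr3c1 stood at 13.2, Srd5a3 at 7.21, Esr1 at 5.99 and Pgr at 2.86. In uterine Amhr2+ cells Esr1 at 33.5 and Pgr at 28.3 stood above 91.8% and 89.5% of 13806 genes on this scale. Lengths from merged exons lower Esr1, whose exons merge to 13661 bp against 6339 bp in its longest transcript. On the longest transcript Esr1 stood at 20.4 and Nr3c1 at 15.03 in E14.5 XX cells, which reverses their order. Merged lengths also lower Srd5a3, at 4648 bp against 2220 bp. On the longest transcript Srd5a3 stood at 15.1 and Nr3c1 at 15.7 in E16.5 XY cells.

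Marker genes of several cell types differed between the groups compared. Smooth muscle markers (6 genes, all detected) summed to 302 to 326 CPM in E14.5 XX and 607 to 888 CPM in E14.5 XY libraries, and to 465 to 567 CPM in E16.5 XX and 1716 to 2893 CPM in E16.5 XY libraries. Of those 6, 5 were lower in XX at E16.5 by the same test. Gli1 itself was 54.0, 49.7 and 48.5 CPM in E16.5 XX and 194, 211 and 220 CPM in E16.5 XY cells. Immune markers were higher in XX for 3 of 6 genes at E16.5, where 27.3% of all genes were called. They summed to 27.7 to 71.4 CPM in XX and 12.8 to 46.4 CPM in XY libraries, with medians of 42.4 and 44.1 CPM. The highest of them, Cd68, averaged 34.5 CPM in XX and 30.8 CPM in XY cells. In the uterus, smooth muscle markers summed to 1122 to 1769 CPM in Amhr2+ and 2121 to 2340 CPM in Gli1+ libraries, and epithelial markers to 73.3 to 75.9 and 32.9 to 45.3 CPM. There the mesenchymal markers summed to 22321 to 24337 CPM in Amhr2+ and 41240 to 45613 CPM in Gli1+ libraries, with 6 of 8 lower in Amhr2+ cells and a median log2 difference of -0.71. Of 7 tested markers of gonadal supporting and steroidogenic cells, 3 were lower in XX at E16.5. That list summed there to 47.7 to 53.0 CPM in XX and 65.8 to 74.3 CPM in XY libraries. Most of each sum was 1 gene, Foxl2, which averaged 34.3 and 52.3 CPM, and 6 of the 11 listed genes averaged under 1 CPM in either sex. Of 5 endothelial markers, 1 was higher and 2 were lower in XX at E16.5, with sums of 64.3 to 77.5 and 81.8 to 91.5 CPM. Germ cell markers, though low, had 2 of 2 tested genes lower in XX at E16.5. They summed there to 0.556 to 0.857 CPM in XX and 1.52 to 2.37 CPM in XY libraries. In the uterus they summed to 0.475 to 0.944 CPM in Amhr2+ and 5.28 to 6.53 CPM in Gli1+ libraries, and the 1 tested gene was lower in Amhr2+ cells. No marker of the smooth muscle, immune, mesenchymal, endothelial or epithelial lists was at 0 in any group mean. The part of these in the fetal differences of Esr1, Pgr and Srd5a3, and in the uterine difference of Esr1, was not tested.

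Genes known to respond to the glucocorticoid receptor were examined next. Some of them also respond to other steroid receptors, and which receptor acted on them was not tested. Of 10 listed genes, 3 were lower in XX at E16.5 and none higher, with a median log2 difference of -0.40; 27.3% of all genes were called there, so the count of 3 in 10 is near the background. Fkbp5, which encodes a co-chaperone that lowers the ligand affinity of steroid receptors, was 45.4, 46.0 and 42.9 CPM in XX and 132, 138 and 139 CPM in XY cells. That is a log2 difference of -1.61 ± 0.06 (edgeR adjusted p = 9.01e-11). Zbtb16, a zinc-finger transcription factor induced by several steroid receptors, was 2.01, 1.97 and 2.80 CPM in XX and 11.6, 12.1 and 13.9 CPM in XY cells (log2 difference -2.47 ± 0.18, edgeR adjusted p = 4.78e-08). Klf9, a Krüppel-like factor, averaged 13.9 ± 2.42 CPM in XX and 41.3 ± 12.8 CPM in XY cells (SD, n = 3; edgeR adjusted p = 0.000651). All 3 genes separated the sexes without overlap. With age Fkbp5 fell by 0.51 in XX cells and rose by 0.89 in XY cells (log2), and its interaction of -1.39 ± 0.09 was called in every alternative (edgeR adjusted p = 9.60e-08). A small RNA gene overlaps Fkbp5 and another overlaps Klf9, and the fetal libraries carry no strand.

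At E14.5 the same 3 genes were the ones called, all lower in XX, where 6.28% of all genes were called. Only the Zbtb16 call held when any library was left out; it had 2, 1 and 5 counts in the XX libraries and 26, 57 and 76 in the XY libraries. Leaving out any 1 of 5 of the 6 E14.5 libraries, all but XY replicate 1, ended the call of Fkbp5 (adjusted p from 0.120 to 0.245) and that of Klf9 (0.0625 to 0.0997). Dissociation and sorting can induce stress genes. A list of 10 immediate-early and heat-shock genes, chosen after the values were seen, summed to 10274 to 17451 CPM in E16.5 XX and 4033 to 19218 CPM in E16.5 XY libraries, and 2 of its genes were called, Hspa1a and Hspa1b, both higher in XX. Its part in the result was not tested.

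The list of genes that respond to oestrogen or progesterone in uterine stroma shares Fkbp5 and Zbtb16 with the list above. All 8 of its genes were called between the sexes at E16.5, with a median of -0.48 against 0.01 over all genes and 27.3% of all genes called. Of these, 3 were higher and 5 lower in XX, the sex with more Esr1 and Pgr, and a link to receptor level was not tested. Igf1, a growth factor, averaged 718 ± 39.0 CPM in XX and 354 ± 13.7 CPM in XY cells (log2 difference 1.02 ± 0.08, edgeR adjusted p = 1.38e-07). Hand2, a transcription factor of the uterine stroma, averaged 12.6 ± 1.92 and 6.19 ± 0.88 CPM, and Wnt4, a secreted signal, 107 ± 5.68 and 57.9 ± 8.86 CPM. The 5 lower in XX were Zbtb16, Fkbp5, Bmp2, a secreted signal, and Ccnd1 and Greb1, both named only to complete the count. Greb1, a gene best known for its induction by oestrogen, was among these: 5.44 ± 0.64 CPM in XX and 7.43 ± 0.72 CPM in XY cells (edgeR adjusted p = 0.0312). That call was lost without E16.5 XX replicate 1 (adjusted p = 0.0952) or 3 (0.0999), or E16.5 XY replicate 2 (0.112) or 3 (0.0530). Other annotated genes overlap Igf1, Hand2, Ccnd1 and Greb1.

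**Figure D3:**
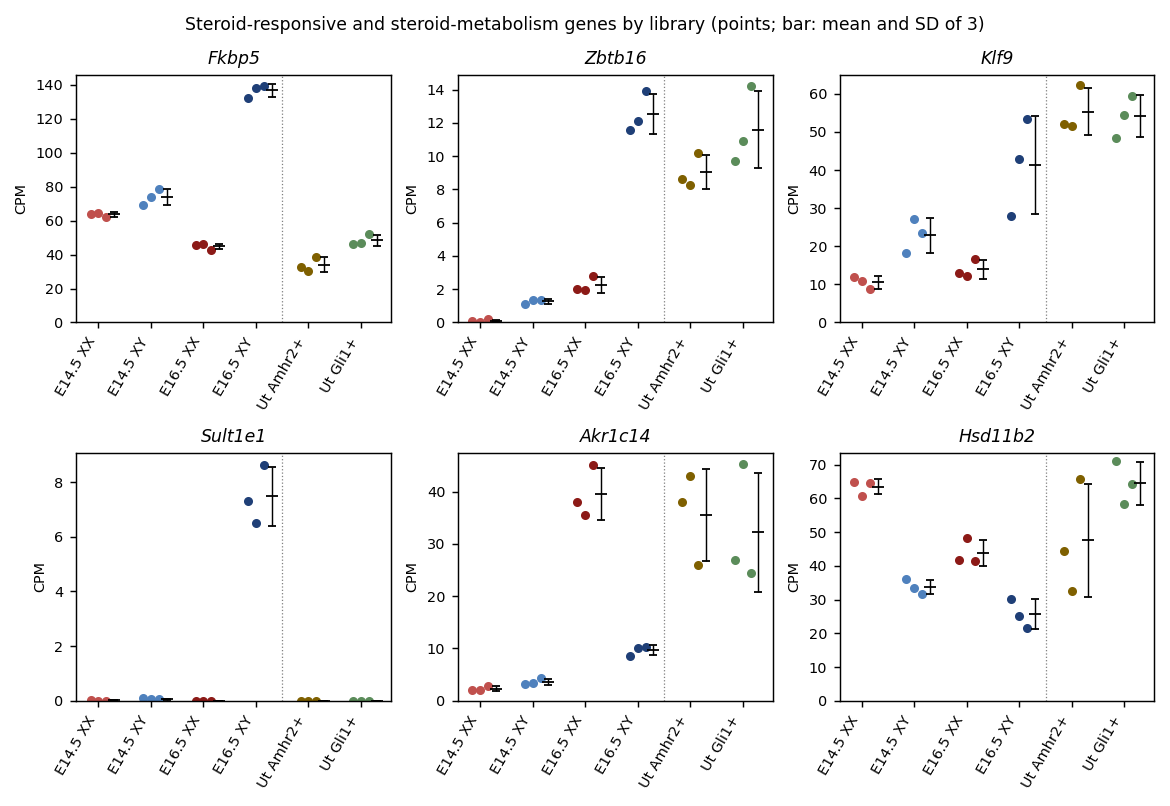
Levels of 6 genes that respond to or metabolise steroids, in CPM on linear axes that start at 0, with each point a library, each bar the mean and SD of 3, and the dotted line between the separately analysed tables. Fkbp5, Zbtb16 and Klf9 were higher in XY than in XX cells at E16.5, Sult1e1 was present in the E16.5 XY libraries alone above 1 CPM, and Akr1c14 and Hsd11b2 were higher in E16.5 XX cells.

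Of 20 listed enzymes that make or dispose of steroids, 10 could be tested, and 6 of these were called at E16.5 (27.3% of all genes), 2 higher and 4 lower in XX, with a median of -0.25. Sult1e1, the oestrogen sulfotransferase, which inactivates oestrogens by sulfation, was 7.31, 6.49 and 8.64 CPM in E16.5 XY cells and had 0 counts in all 3 E16.5 XX libraries. Against a floor of 3 counts per library it was at least 101-fold higher in XY, and the median above is the same with Sult1e1 at this bound. It had at most 3 counts in any E14.5 library and 0 in every uterine library. Akr1c14, a 3-alpha-hydroxysteroid dehydrogenase that acts on 5-alpha-reduced androgens and progestins, went the other way. It was 1.97, 2.03 and 2.90 CPM in E14.5 XX and 3.24, 3.40 and 4.33 CPM in E14.5 XY cells, then 38.1, 35.5 and 45.1 CPM in E16.5 XX and 8.64, 10.1 and 10.3 CPM in E16.5 XY cells. Its sex difference at E16.5 was 2.03 ± 0.13 (edgeR adjusted p = 2.15e-08) and its interaction 2.72 ± 0.22 (edgeR adjusted p = 9.88e-07), called in every alternative. The lower XX level at E14.5, -0.69 ± 0.17 (edgeR adjusted p = 0.0257), was not called without E14.5 XX replicate 1 (adjusted p = 0.141), E14.5 XX replicate 2 (0.120) or E14.5 XY replicate 3 (0.167). The gene belongs to a cluster of similar Akr1c genes, and how the counting treated reads that fit several of them is not given in the sources used here.

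Hsd11b2, which inactivates glucocorticoids and so keeps them from the mineralocorticoid receptor, was higher in XX at both ages. It averaged 63.4 ± 2.25 CPM in E14.5 XX and 33.7 ± 2.13 CPM in E14.5 XY cells, and 43.8 ± 3.78 and 25.7 ± 4.38 CPM at E16.5. The log2 differences were 0.91 ± 0.10 (edgeR adjusted p = 5.51e-05) and 0.77 ± 0.10 (edgeR adjusted p = 3.87e-05), and both calls held in every alternative. The other 3 enzymes lower in XX at E16.5 were Hsd17b7, Cyp7b1 and Hsd11b1; the last, at 0.472 CPM or less in every group mean, falls below the 1 CPM asked of a named gene and is given to complete the count. Of the genes of steroid synthesis, Cyp11a1, whose enzyme begins it, averaged at most 0.1002 CPM in any group, and Cyp19a1, the aromatase that makes oestrogens, had a level of 0 in all 18 libraries. Star, which brings cholesterol to that first enzyme, was higher, at 14.7 ± 0.29 CPM in E14.5 XX, 12.9 ± 2.47 CPM in E14.5 XY, 7.67 ± 1.53 CPM in E16.5 XX and 8.65 ± 2.09 CPM in E16.5 XY cells.

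Of 7 membrane steroid receptors and binding proteins, 2 were higher in XX at E16.5: Paqr8, a membrane progestin receptor, averaged 16.4 ± 0.70 against 11.2 ± 0.71 CPM, and Gper1, a G protein-coupled receptor for oestrogen, 1.03 ± 0.28 against 0.414 ± 0.081 CPM. The median of that list was 0.01, and another annotated gene overlaps each of the pair. Of 10 coactivators and corepressors, Carm1 was higher and Ncoa1 lower in XX at E16.5 (median 0.05), and none of the 10 was called at E14.5. The Ncoa1 difference was -0.49 ± 0.11 (edgeR adjusted p = 0.00274), and that of Carm1, 0.21 ± 0.07 (edgeR adjusted p = 0.0346), was not called without E16.5 XX replicate 1 or 2 or E16.5 XY replicate 2 or 3, with adjusted p up to 0.200. Of 9 receptor chaperones, Fkbp5 and Ptges3 were lower in XX at E16.5 (median -0.07). The counts of these 3 lists, 2 of 7, 2 of 10 and 2 of 9, were near or below the 27.3% of all genes called. The Ptges3 call was lost without E16.5 XX replicate 1 (adjusted p = 0.0568), E16.5 XX replicate 2 (0.0622) or E16.5 XY replicate 3 (0.0639).

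With age, 6 of the 10 glucocorticoid-responsive genes changed in XX cells, 4 of them up (median 0.46), where 39.6% of all genes were called. In XY cells 6 of 10 changed, all up (median 0.54), where 23.3% of all genes were called. Of these XY calls, those of Klf9 and Tsc22d3 held in 5 of 11 alternatives each and that of Cebpd in 9 of 11. In XX cells the call of Sgk1, which fell, held in 5 of 11. The all-gene medians in XX and XY cells were 0.00 and -0.01. Of the 10 immediate-early and heat-shock genes, 3 were called with age in XX cells, all up (median 0.95), and 0 in XY cells (median 0.34). They summed to 8749 to 9760 CPM in E14.5 XX and 10274 to 17451 CPM in E16.5 XX libraries. The part of handling in these age differences was not tested. Zbtb16 rose from at most 0.181 CPM in any E14.5 XX library to at least 1.97 CPM in every E16.5 XX library. In XY cells it rose by 3.28 ± 0.19 (log2; edgeR adjusted p = 6.72e-09). Igf1 rose by 1.61 ± 0.08 in XX cells (edgeR adjusted p = 1.08e-09) and by 0.68 ± 0.08 in XY cells (edgeR adjusted p = 1.22e-05), and the interaction of 0.93 ± 0.11 was called in every alternative (edgeR adjusted p = 6.45e-05). Greb1 fell by 0.85 ± 0.15 in XX cells (edgeR adjusted p = 0.000313) and by 0.85 ± 0.14 in XY cells (edgeR adjusted p = 0.000317). Hsd11b2 fell by 0.53 ± 0.10 in XX cells (edgeR adjusted p = 0.000761) and by 0.39 ± 0.10 in XY cells (edgeR adjusted p = 0.0122), the latter not called without E16.5 XY replicate 3 (adjusted p = 0.0661) or with only the libraries compared (0.0548). Of the 7 membrane receptors and binding proteins 4 rose in XX cells and none fell (median 0.47), where 39.6% of all genes were called. In XY cells 2 rose and 1 fell (median -0.01), where 23.3% of all genes were called.

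In the uterus 3 of the 8 hormone-responsive stromal genes were higher in Amhr2+ cells and 2 were lower. Esr1 was also higher in Amhr2+ cells, by a call that rested on single libraries, and a link between them was not tested. Hand2 averaged 113 ± 14.98 CPM in Amhr2+ and 43.4 ± 7.14 CPM in Gli1+ cells (log2 difference 1.38 ± 0.14, edgeR adjusted p = 0.000463), Bmp2 31.3 ± 1.64 and 15.6 ± 0.25 CPM, and Greb1 15.04 ± 1.04 and 9.75 ± 1.202 CPM. Igf1 and Fkbp5 were lower in Amhr2+ cells, which made 5 of 8 called (median 0.07), where 23.9% of all genes were called. The Igf1 difference of -0.71 ± 0.19 (edgeR adjusted p = 0.0356) was lost without Amhr2+ replicate 1 (adjusted p = 0.0865) or without any single Gli1+ library (0.0734 to 0.0836), with the replicate block (0.114) and with no filter (0.168). Of the 10 glucocorticoid-responsive genes, 5 were lower in Amhr2+ cells and none higher (median -0.42 against 0.00 over all genes): Cebpd, Sgk1 and Fkbp5, and, to complete the count, Per1 and Tsc22d3. Of these calls, Sgk1, a kinase (log2 difference -0.51 ± 0.09, edgeR adjusted p = 0.00618), and Fkbp5 held in every alternative. That of Cebpd was lost without any 1 Amhr2+ library or Gli1+ replicate 1 (adjusted p from 0.0552 to 0.0960), with the replicate block (0.119) and with no filter (0.107), that of Per1 without Amhr2+ replicate 1 or 2 or Gli1+ replicate 2 or 3 (0.0503 to 0.0758), and that of Tsc22d3 without any 1 of 5 of the 6 libraries, all but Amhr2+ replicate 3 (0.0570 to 0.188). Fkbp5 was 32.6, 30.5 and 38.8 CPM in Amhr2+ and 46.4, 46.7 and 52.0 CPM in Gli1+ cells (log2 difference -0.51 ± 0.10, edgeR adjusted p = 0.00789). The handling list described above ranged from 3906 to 5120 CPM in Amhr2+ and from 1298 to 12404 CPM in Gli1+ libraries, and its part was not tested.

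Of 9 enzymes tested in the uterus, Hsd17b11, which oxidises steroids and lipids, was higher in Amhr2+ cells at 167 ± 15.5 against 129 ± 5.42 CPM, and Cyp7b1, an oxysterol and steroid hydroxylase, was lower at 20.3 ± 1.83 against 31.9 ± 3.25 CPM. Both calls held in every alternative. Of 9 chaperones, St13 and Stip1 were higher and Fkbp5 lower, and of 10 coactivators and corepressors Med1 was higher. Against the 23.9% of all genes called, 2 of 9 enzymes, 3 of 9 chaperones and 1 of 10 coactivators and corepressors are not set apart by their counts. Leaving out 1 library could end the calls of Stip1 and Med1, with adjusted p up to 0.0941 and 0.142: for Stip1 any Amhr2+ library or Gli1+ replicate 1, for Med1 Amhr2+ replicate 1 or 3 or Gli1+ replicate 1 or 2. Of 6 membrane receptors tested, 3 were called, Gper1, Paqr6 and Paqr8, all lower in Amhr2+ cells, where 23.9% of all genes were called. The call of Paqr8 was lost without any 1 library but Gli1+ replicate 2 (adjusted p from 0.0924 to 0.124). It was also lost with library-size scaling (0.0810) and with no filter (0.0629). The Paqr6 call was lost without Amhr2+ replicate 1 (0.0640) or Gli1+ replicate 1 (0.0533), and that of Gper1 without Amhr2+ replicate 1 (0.0537).

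Genes with the most similar pattern were sought by Pearson's r of log2 CPM over the 12 fetal libraries, among 11245 genes; these libraries fall in 4 groups, so r follows the group means. Nearest to Esr1 were Slitrk5 (r = 0.996), Negr1 (0.989) and Spock3 (0.985), and nearest to Pgr were C1ql1 (0.993), Serpinf1 (0.991) and Nova1 (0.986). Slitrk5, for example, averaged 42.6 CPM in E16.5 XX and 12.4 CPM in E16.5 XY cells. Srd5a3 was nearest to a clone-named transcript that overlaps Tcf21 (0.975), then Actr3b (0.972) and Abcc4 (0.970). For Srd5a1 they were Rilpl1 (0.954), Rhog (0.944) and Phf23 (0.939), and for Nr3c1 Ulk2 (0.884), Rps6ka5 (0.876) and Ppp2r3a (0.875). Over the 6 uterine libraries all 6 genes near Esr1 and Pgr had a negative r, from -0.95 for Slitrk5 to -0.38 for Spock3. Esr1 and Pgr themselves had r = 0.71 over the fetal and 0.62 over the uterine libraries.

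The unified peak list comes from 8 ATAC-seq samples of fetal Gli1+ cells, 2 for each sex at E14.5 and E16.5; no uterine or Amhr2+ sample is among them. It gives positions without sample values and so compares no groups. A peak lay within 1 kb of an annotated start for 7 of the 8 genes, Srd5a2 being the exception; 65.6% of 21911 protein-coding genes had one. Esr1 had 13 peaks in its gene body, Nr3c2 7, Pgr and Nr3c1 3 each, and Esr2, Srd5a1, Srd5a2 and Srd5a3 1 each. Longer gene bodies held more peaks: 394.0 kb for Esr1, 345.6 kb for Nr3c2, 108.9 kb for Nr3c1 and 68.8 kb for Pgr. The genes with 1 peak spanned 15.2 to 56.8 kb. The first Esr1 peak, chr10:4611750-4612064, overlapped the promoter printed above. The Pgr promoter printed above overlapped no peak. The first peak of Pgr, chr9:8900288-8900806, was exonic. Its midpoint lay 714 bases from the 5′ end of the gene and 79 bases from another annotated Pgr start. The Pgr window printed above lies in an intron, with the midpoint of its peak 37964 bases from the 5′ end of the GENCODE gene model, and the Esr1 window in an intron with its midpoint at 879 bases from that end. Of the 13 peak windows at Esr1, 2 held the oestrogen half-site and 5 the other, and of 4 at or near Pgr, 2 and 1.

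**Figure D4:**
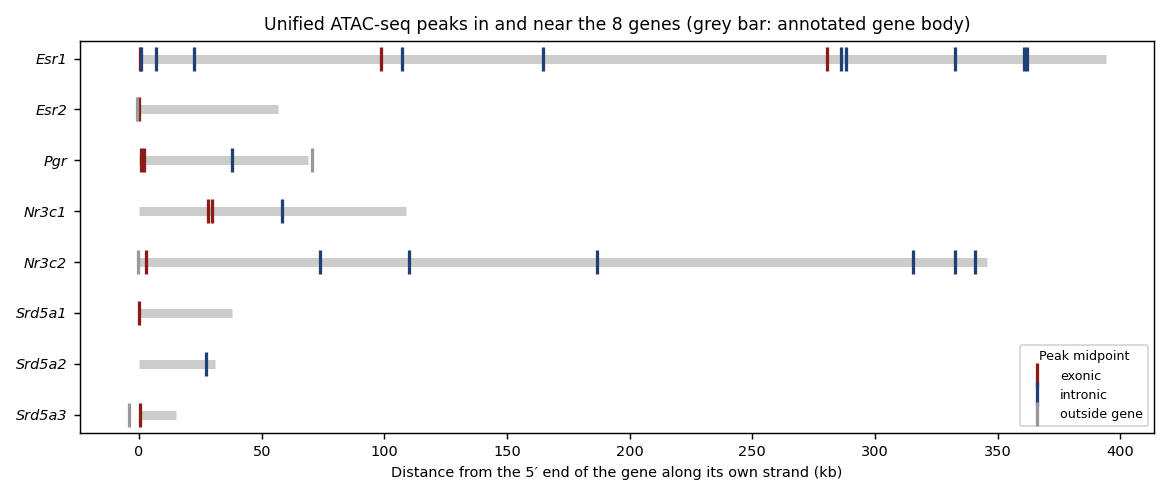
Midpoints of the authors' unified ATAC-seq peaks in and near the 8 genes, by distance in kb from the 5′ end of each GENCODE gene model along its own strand. Grey bars are annotated gene bodies and colours mark exonic, intronic and outside peaks. Esr1 has 13 peaks in a gene body of 394.0 kb and Pgr 3 in 68.8 kb, and the list has no values per sample.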

How the data were processed

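The authors deposited 2 tables of read counts per gene, per the labels and file headers, and 1 unified list of ATAC-seq peak positions. The submitters' processing notes name STAR 2.5, featureCounts from Subread 1.5.0-p1, Bowtie 1.2, MACS2 2.1.1 and the build mm10; annotation, strand setting and treatment of shared reads are not given in the sources used here. Members and gene lists were chosen with earlier results of these data known.

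Each table was fitted with edgeR 4.0.16 (R 4.3.3): filterByExpr, TMM scaling, the quasi-likelihood test on 1 mean per group, and Benjamini-Hochberg adjustment over all genes tested, with a call at an adjusted p under 0.05. Intervals were set from the SE by a normal approximation, which makes them narrower than the quasi-likelihood test implies. The fit was tested on simulated counts. Alternatives were DESeq2 1.42.0, library-size scaling, no filter, only the libraries compared, a replicate block and leaving out each library; none was added after seeing the data. All 8 members are named. From each list and contrast, up to 3 called genes per direction with the largest change and at least 1 CPM in the higher group are named. The 10 handling genes were chosen after the values were seen. Counts limit precision, and floors cover counting error only.

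Same-numbered libraries deviated together at E16.5 between the sexes (correlations 0.284, 0.115 and 0.396), a pairing seen in the data and not stated in the labels. In the other contrasts at least 1 pair was below 0.1. Replicates differed by more than counting noise.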

Additional observations from a re-analysis of the deposited data

Results flagged for a closer look

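The sex difference changed between E14.5 and E16.5 for 4 of the 7 tested members, by a test of the difference itself (edgeR's interaction of sex and age over the 12 fetal libraries). The XX excess grew by 0.91 on the log2 scale for Esr1 and by 1.997 for Pgr. For Nr3c1 the change was -0.40 and for Srd5a3 -0.35, towards XY. The first 2 were called in all 16 alternatives, the last 2 in 6 of 16 each. No group had enough libraries for a test of single outlying libraries.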

How the results depend on the processing

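Called directions of the members did not turn under any alternative run. With 1 library left out, counts over all genes ran from 553 to 1678 for sex at E14.5 (1121 with all), from 1335 to 2687 for the interaction (1790) and from 1949 to 3521 in the uterus (3866). With age in XY the count ran from 3364 to 3924 (4168), and was 2794 with only the libraries compared. Members called ranged from 2 to 4 for the interaction and from 0 to 1 in the uterus when a library was left out; in the uterus they were 2 with DESeq2, 3 with library size only and 2 with the replicate block. Uncalled differences near 0 turned sign as single libraries were left out; the cause was not tested. For Esr2 they ran from -0.0277 to 0.62 at E14.5, from -0.40 to 0.33 at E16.5, from -0.66 to 0.0781 in the interaction and from -0.12 to 0.60 with age in XX. For Srd5a1 they ran from -0.15 to 0.0271 at E14.5, from -0.11 to 0.0498 at E16.5 and from -0.0696 to 0.13 in the interaction. Pgr at E14.5 ran from -0.16 to 0.18, and Nr3c2 at E16.5 from -0.11 to 0.32. The replicate block kept the Esr1 and Pgr sex differences at E16.5 at 1.26 and 2.03; among members it ended the Nr3c2 call with age in XY (adjusted p = 0.0511) and made 1 for Srd5a1 in the uterus (adjusted p = 0.0371), and changed no other member's call. Library-size scaling moved the split of higher and lower calls over all genes from 3746 and 3322 to 3130 and 3924 with age in XX, from 2340 and 1828 to 1847 and 2641 with age in XY, and from 1642 and 2224 to 2849 and 1640 in the uterus. Depth limits Esr2, Nr3c2 and Srd5a2.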
